A study of Mus musculus with 8 samples.

Results

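m6A is a methyl mark on adenosine inside mRNA that affects splicing, decay and translation. It is written during transcription by a methyltransferase complex in which METTL3 carries the catalytic activity and WTAP, the product of *Wtap*, keeps the complex together in the nucleus. Most m6A of mRNA lies in long internal exons and near stop codons. The antibody also binds m6Am, a related mark on the first transcribed base of many mRNAs, which a different enzyme writes. The question addressed here is which transcripts carried an m6A peak in livers of *Wtap*-HKO mice and none in livers of *Wtap* flox/flox mice, and what their peaks look like.

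These are the peaks of the genes that held a peak in the *Wtap*-HKO list and whose gene identifier is absent from the *Wtap* flox/flox list. They are called HKO-only genes below. The genes were selected on the readout itself, the presence or absence of a listed peak in each genotype. The rule gave 3303 peaks of 19185 *Wtap*-HKO peaks (17.2%), in 2538 of 10634 genes. The 2 lists together name 11558 genes, of which these 2538 are 22.0%, and this background stands behind every count of genes below. Another 8096 genes held peaks in both lists, with 15882 peaks in *Wtap*-HKO, and 924 genes held peaks only in *Wtap* flox/flox. The size of the group is therefore no finding.

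Both groups of mice were C57BL/6 on normal chow, studied at 8 weeks of age. *Wtap* flox/flox mice carry exon 4 of *Wtap* between loxP sites in every cell. *Wtap*-HKO mice are *Wtap* flox/flox Alb-Cre, with Cre under the albumin promoter, which deletes *Wtap* in hepatocytes. The paper calls the knockout hepatocyte-specific. Whether all other liver cells keep *Wtap* was not examined here. m6ARIP-seq sequenced poly(A)+ RNA fragments pulled down by an m6A antibody (IP) beside fragments before the pull-down (input), with 2 IP and 2 input libraries per genotype, each from RNA pooled from 5 mice. Each deposited list merges the replicates of a genotype. No peak therefore has a value per library, no SD and no test against the spread between replicates, the library depth is unknown, and all statements are descriptions of 1 list per genotype. *Wtap* itself held 3 peaks in each list and is not an HKO-only gene. Peaks are no measure of transcript level, so this does not check the deletion. In bulk liver, more cells of a type, more RNA per cell and more m6A per transcript cannot be told apart from a peak list.

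The HKO-only genes with the lowest false discovery rates (FDR) had their peaks mostly at the start of the gene. The following windows show 8 of these starts, chosen because they carry the most certain peaks within 200 nt of a start in the RefSeq table. Each runs 5´ to 3´ on the gene's strand (GRCm38.p6, RefSeq), with 30 bases before the start in lower case and the first 30 transcribed bases in capitals.
Nupr1, chr7:126625441-126625500, minus strand: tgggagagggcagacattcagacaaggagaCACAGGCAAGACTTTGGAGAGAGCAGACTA
Lcn2, chr2:32387710-32387769, minus strand: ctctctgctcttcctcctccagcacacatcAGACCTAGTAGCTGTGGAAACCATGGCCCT
Igfbp7, chr5:77408016-77408075, minus strand: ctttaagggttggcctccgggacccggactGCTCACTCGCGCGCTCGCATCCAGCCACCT
F2, chr2:91636428-91636487, minus strand: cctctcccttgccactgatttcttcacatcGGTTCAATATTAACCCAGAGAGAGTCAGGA
Ftl1, chr7:45459857-45459916, minus strand: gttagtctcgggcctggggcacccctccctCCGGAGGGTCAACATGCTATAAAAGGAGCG
Lyz2, chr10:117282243-117282302, minus strand: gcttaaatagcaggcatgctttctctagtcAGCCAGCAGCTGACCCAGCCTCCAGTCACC
Atp5b, chr10:128083277-128083336, plus strand: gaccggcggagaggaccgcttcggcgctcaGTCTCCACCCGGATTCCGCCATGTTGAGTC
Pzp, chr6:128526691-128526750, minus strand: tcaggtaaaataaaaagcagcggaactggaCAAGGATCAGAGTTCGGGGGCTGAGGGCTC

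Fold enrichment is the authors' ratio of IP over input for a peak. The 5´-end peak of *Nupr1*, a stress-induced chromatin protein, reached 18.2 over 240 exonic nt, and a further peak near its 3´ end had 4.35. *Lcn2*, an acute-phase lipocalin that neutrophils also carry, had 6.16 over 239 nt, and *Igfbp7*, a secreted binding protein of endothelial and stellate cells, had 4.65 over 207 nt. *F2*, which encodes prothrombin, had 2.75 and *Ftl1*, the ferritin light chain, had 2.14. The macrophage lysozyme gene *Lyz2* had 10.9 at its start and 1.56 near its 3´ end, *Atp5b*, a subunit of ATP synthase, had 3.18, and *Pzp*, a plasma protease inhibitor, had 2.95. Apart from *Nupr1* and *Lyz2*, these most certain peaks were of modest enrichment. The nearer edge of the peak lay 4 nt from the RefSeq start for *Igfbp7* and *Atp5b* and at the start itself for *Pzp*. The peaks of *Lcn2*, *Nupr1* and *Lyz2* began 134, 76 and 49 nt before the RefSeq start, and those of *F2* and *Ftl1* 73 and 32 nt after it. First bases and motif positions below are those of the RefSeq start, which need not be the start of the transcript with the peak.

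The first transcribed base of these 8 starts is C in *Nupr1*, *Ftl1* and *Pzp*, A in *Lcn2* and *Lyz2*, and G in *Igfbp7*, *F2* and *Atp5b*. Over all HKO-only genes, 683 RefSeq starts had a peak within 200 nt. They began with G in 48.0%, A in 29.4%, C in 11.7% and T in 10.8%. The 2502 starts with a *Wtap*-HKO peak in genes of both lists began with G in 44.9% and with A in 31.9%, and all 32851 starts of the table with G in 35.6% and A in 34.4%. The m6A consensus string GGACT was searched in the first 50 bases, on the transcribed strand only. Its relative AGACT was searched in the same way, and a further variant with T in the first place was included (TGACT), which can share its first base with the end of another match. GGACT occurred in 6.44% of the 683 starts against 5.76% of all starts, AGACT in 3.07% against 5.14%, and TGACT in 2.78% against 4.62%. At least 1 of them occurred in 82 of them (12%) and in 14.8% of all starts. Counted from the RefSeq start, *Nupr1* holds AGACT at positions 9 and 25 and *Lyz2* holds AGACT at 35 and TGACT at 44. *Ftl1* is the only one of the 8 with GGACT, at position 42. Positions over 30 lie past the bases shown. The first 50 bases were richer in G and C at the 683 starts (65.2%) than over the table (56.7%). A match is a description of letters and not a methylated site.

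Among the 10 HKO-only peaks of lowest FDR, 9 had a listed FDR of 0. Beside the genes shown above they included *Ly6d*, a GPI-anchored surface protein, with 7.45 over 209 nt in 2 exon blocks, and 3 gene identifiers without a symbol. The remaining peak was that of *Dmbt1*, a secreted scavenger receptor, with 9.79 over 389 nt (log10 FDR -321) at 58 nt from its 3´ end, the only one of the 7 named genes away from the 5´ end. Of the 3 identifiers without a symbol, ENSMUSG00000110350 lies opposite *Ftl1* on the other strand with a peak of 2.13 at nearly the same bases. ENSMUSG00000111282 lies opposite a peak of *Apoa4*, a gene of both lists, and the remaining one shares its span with *Hsd17b4*, another HKO-only gene. Whether the library kit kept strand is not stated in the sources used here, and reads of such pairs cannot be told apart. In all, 386 HKO-only peaks (11.7%) shared an exonic base with a *Wtap*-HKO peak of another gene on either strand, 78 of them on the same strand. This share was 40.7% for the 479 peaks without a symbol and 6.76% for the 2824 with one.

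The HKO-only peaks had a higher median enrichment, shorter exonic length and weaker FDR than the *Wtap*-HKO peaks of genes in both lists. The median fold enrichment was 7.79 (95% interval of the median 7.29 to 8.13; quartiles 4.16 and 19.9), against 5.72 (5.65 to 5.81; quartiles 3.55 and 10.2). Intervals here and below cover counting error only, and peaks of 1 gene are not independent. At least 20-fold enrichment was found in 814 HKO-only peaks (24.6%) and in 1658 peaks of the other genes (10.4%). The median exonic length was 180 nt (quartiles 145.5 and 240) against 270 nt (180 and 420). Among peaks that shared no base with a *Wtap* flox/flox peak, however, it was 180 nt in both groups. The median log10 FDR was -9.17 against -27.9, and an FDR of 0 was listed for 9 HKO-only peaks (0.272%) and for 651 peaks of genes in both lists (4.10%). The genes with peaks only in *Wtap* flox/flox, the mirror group, also had short peaks, with a median of 180 nt, but a median enrichment of 4.03 (3.88 to 4.23).

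**Figure D1:**
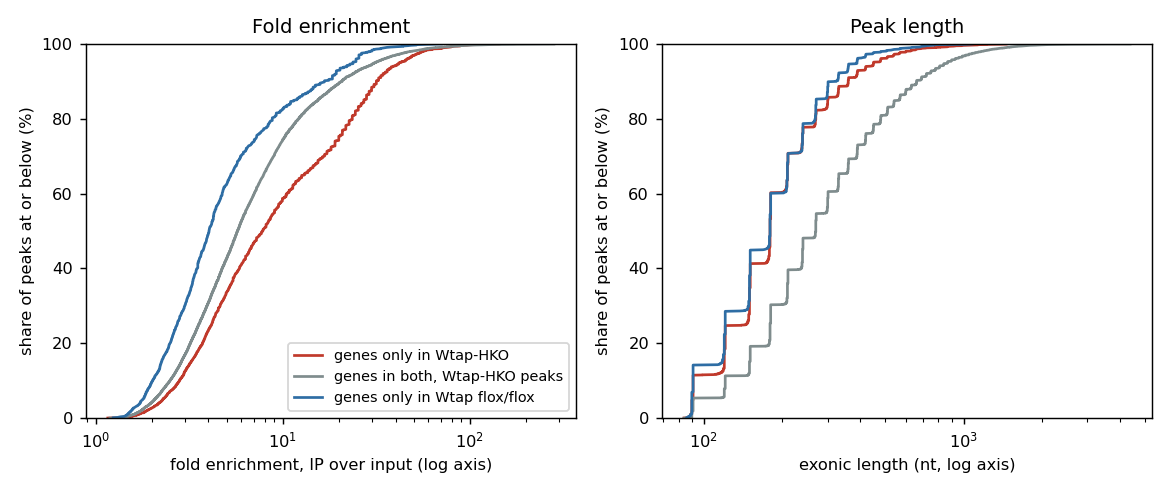
Cumulative share of peaks (%) by fold enrichment (left, IP over input, log axis) and by exonic length in nt (right, log axis) for HKO-only genes (red), *Wtap*-HKO peaks of genes in both lists (grey) and genes with peaks only in *Wtap* flox/flox (blue). The red curve of enrichment lies to the right, with a median of 7.79 against 5.72 and 4.03, while in length it runs with the blue curve at a median of 180 nt against 270 nt for the grey one.

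Part of the high enrichments repeated the same values. Exactly the same pair of fold enrichment and log10 FDR, found in 5 or more *Wtap*-HKO peaks, occurred in 698 HKO-only peaks (21.1%; Wilson interval 19.8 to 22.6%) and in 561 peaks of genes in both lists (3.53%). The pair of 28 and -6.56 alone stood for 27 HKO-only peaks, among them those of *Egr3*, *Fasl* and *Ighv1-75*, with lengths from 90 to 239 nt. Among HKO-only peaks of at least 20-fold enrichment, the share with such a pair was 49.5%. Without these peaks the median enrichment was 5.87 for HKO-only genes (5.65 to 6.17) and 5.58 for genes of both lists (5.50 to 5.65). The gap between the groups was thus far smaller without the recurring values. This comparison was added after the values had been seen, and the read counts behind the ratios are not used here.

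**Figure D2:**
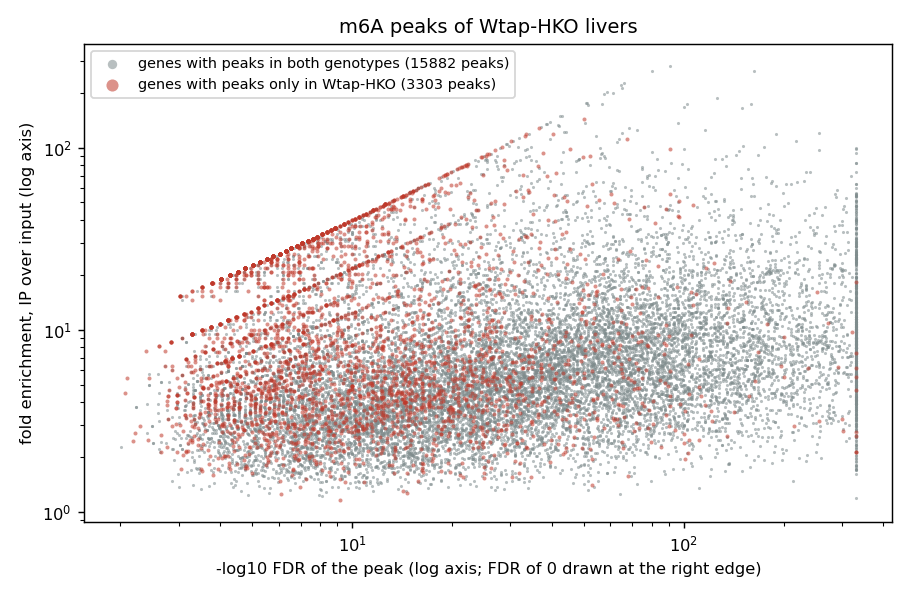
Fold enrichment (IP over input, log axis) against -log10 FDR (log axis) for each *Wtap*-HKO peak, in red for the 3303 peaks of HKO-only genes and in grey for the 15882 peaks of genes in both lists. Many red points sit on rising lines at the upper left, where the same pairs of values recur (698 HKO-only peaks), and 9 lie at the right edge with an FDR of 0.

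Gene by gene, 1968 HKO-only genes (77.5%; Wilson interval 75.9 to 79.1%) held 1 peak, 435 held 2, 95 held 3 and 40 held 4 to 7. In genes of both lists 44.5% held 1 *Wtap*-HKO peak. When both groups were limited to genes with 1 peak, the median enrichment was 6.47 (6.12 to 6.87) against 5.73 (5.60 to 5.90), and the median length 180 nt against 269 nt. Peaks across an exon junction made up 18.4% of the HKO-only peaks (17.2 to 19.8%) and 19.4% of the others (18.8 to 20%), and these intervals overlap. By RefSeq, 2039 of the 2075 placed HKO-only genes are protein-coding.

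The most peaks were found in *Naip6*, a cytosolic sensor of bacterial flagellin, with 7 peaks over 2252 nt and enrichments from 8.36 to 48.8. *Naip6* has near-identical copies, and how reads were shared among them is not stated in the sources used here. *Hivep3*, a zinc finger transcription factor, had 6 peaks (8.43 to 33.4). *Cenpf*, a kinetochore protein of dividing cells, had 6 peaks of lower enrichment (5.29 to 13.1). *Pcdhb22*, a clustered protocadherin, was listed with 6 peaks at 15.8 to 41.6, but they overlap in 3 pairs. *Pcdh7* had 5 peaks from 31.6 to 47.0, together 2373 nt. Overlapping spans of this kind occurred in 26 HKO-only genes (1.02%).

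Several of the 10 highest enrichments, taken among peaks with a log10 FDR under -5, belonged to genes of immune cells. *Slamf7*, a receptor of lymphocytes, macrophages and plasma cells, led with 143 over 599 nt (log10 FDR -50.2), and its 4 other peaks ranged from 18.5 to 55.3. It was followed by *Samd5* (128), the orphan receptor gene *Mrgprf* (118), *Def6* (118), a guanine nucleotide exchange factor of T cells, and *Tagap* (115), a GTPase-activating protein of activated T cells. *Cyp1b1*, an extrahepatic cytochrome P450, had 112 over 931 nt and the secreted EGF-repeat protein gene *Scube1* had 108. *Il7r*, the interleukin 7 receptor of lymphocytes, had 101 over 987 nt. *Arl11* (98.5) and *Gna15* (97.6), a G protein subunit of blood cells, complete the 10. None of these 10 peaks lay within 200 nt of a 5´ end. The 5 longest peaks lay in *Svep1* (1469 nt, enrichment 51.2), *Cx3cr1* (1462 nt, 20.3), *Ccr1* (1432 nt, 56.0), *Gpr183* (1280 nt, 63.2) and *Scube1* (1229 nt, 48.1). *Cx3cr1* and *Ccr1* are chemokine receptors of myeloid cells, *Gpr183* guides the migration of B cells and dendritic cells, and *Svep1* is an extracellular adhesion protein.

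At the weak end of the list, the HKO-only peaks nearest the threshold lay in 3 genes without a symbol, with log10 FDR of -2.06, -2.10 and -2.19 over 87 to 90 nt. Just outside the group stand genes whose single *Wtap* flox/flox peak was the weakest. These were *Parl*, a mitochondrial protease (log10 FDR -2.22, enrichment 2.38), 1 gene without a symbol (-2.43, 3.64) and *Dnaaf1*, a dynein assembly factor (-2.47, 4.39).

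HKO-only peaks lay at the 5´ end of the gene more often than the other peaks. Of the 2760 peaks that could be placed on a RefSeq gene span through their symbol, 714 (25.9%; Wilson interval 24.3 to 27.5%) had their nearer edge no more than 200 nt from the 5´ end. Genes of both lists had 16.8% of their *Wtap*-HKO peaks there (16.2 to 17.4%) and 11.2% of their *Wtap* flox/flox peaks (10.6 to 11.7%), and genes with peaks only in *Wtap* flox/flox had 4.39% (3.20 to 5.99%). At the 3´ end the *Wtap*-HKO groups had overlapping intervals, with 7.39% of the HKO-only peaks (6.47 to 8.43%), 8.43% of the other *Wtap*-HKO peaks (7.99 to 8.89%), and the *Wtap* flox/flox-only genes had 14.9% (12.7 to 17.5%). With 1 peak a gene, however, the 3´-end share was 7.71% for HKO-only genes (6.64 to 8.94%) and 10.7% for genes of both lists. In genes with a single *Wtap*-HKO peak it was 7.59% (6.37 to 9.01%) and 12.2%. The first 10% of the gene span held 28.6% of the HKO-only midpoints and the last 10% held 32.0%, while genes of both lists had 19.5% and 36.1%. Spans include introns and ignore which isoform the liver uses, and stop codons could not be placed without transcript models. Against the nearest of all RefSeq starts of a gene, 32.9% of the HKO-only peaks and 21.6% of the others lay within 200 nt.

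**Figure D3:**
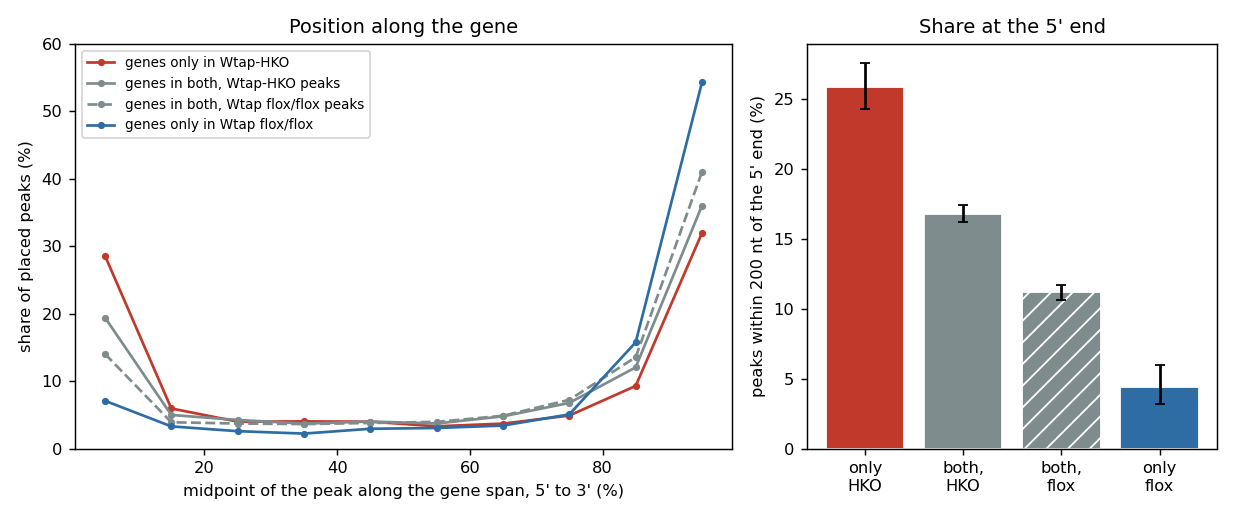
Left, share of placed peaks (%) whose midpoint falls in each 10% of the RefSeq gene span from 5´ to 3´. Right, share of peaks (%) within 200 nt of the 5´ end, with 95% Wilson intervals as error bars. HKO-only genes (red) stand highest at the 5´ end, at 25.9% against 16.8% and 11.2% for genes of both lists (grey, *Wtap*-HKO and *Wtap* flox/flox peaks) and 4.39% for genes only in *Wtap* flox/flox (blue).

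Within the *Wtap*-HKO list, enrichment by position differed between the HKO-only genes and the genes of both lists. HKO-only peaks at the 5´ end had a median enrichment of 5.42 (5.05 to 5.82) and those elsewhere 9.94 (9.42 to 10.8). The *Wtap*-HKO peaks of genes in both lists had the opposite order, with 6.60 at the 5´ end (6.32 to 6.84) and 5.50 elsewhere (5.42 to 5.58). The *Wtap* flox/flox peaks of the same genes had the order of the HKO-only peaks, with 3.93 at the 5´ end (3.75 to 4.08) and 5.93 elsewhere (5.86 to 6.02). Genes with peaks only in *Wtap* flox/flox had the reverse order. Their medians were 5.71 for 37 peaks at the 5´ end (3.88 to 8.55) and 3.785 elsewhere (3.58 to 3.96), with overlapping intervals. All these medians include the recurring pairs of values described above, and the split by position was not repeated without them. Such pairs occurred in 49.5% of the HKO-only peaks of at least 20-fold enrichment. Among HKO-only peaks with a log10 FDR of -100 or lower, 25 of 44 placed peaks (56.8%) were at the 5´ end, against 22.3% in genes of both lists. With log10 FDR from -20 to -5, the shares were 21.6% and 13.0%. Of the HKO-only peaks of at least 20-fold enrichment, 54 of 699 placed peaks (7.73%) lay there, and of those under 20-fold 660 of 2061 (32.0%). Genes of both lists had the same direction with a smaller step, at 179 of 1470 (12.2%) and 2284 of 13215 (17.3%).

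Since the rule left out the genes of the control list, a *Wtap* flox/flox peak at the same place could only carry another gene identifier. Such overlap was rare, as 9 HKO-only peaks (0.272%) shared an exonic base on the same strand with a *Wtap* flox/flox peak of another gene identifier, and 37 (1.12%) did on either strand. In genes of both lists 78.1% of the *Wtap*-HKO peaks shared a base with a *Wtap* flox/flox peak. The authors' table of differing regions, of which only positions were used, held a region named for 271 HKO-only genes (10.7%), 2723 genes of both lists (33.6%) and 222 genes of *Wtap* flox/flox only (24.0%).

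The 26 gene lists of immune, matrix, proliferation and liver cell genes held 854 genes listed in at least 1 genotype, and 283 of them (33.1%; Wilson interval 30.1 to 36.4%) were HKO-only, above the 22.0% of all genes with a peak. By class, the HKO-only share was 55.3% for cell cycle genes (42 of 76), 40.1% for matrix genes (61 of 152), 39.3% for immune genes (125 of 318) and 38.7% for cholangiocyte and epithelial markers (12 of 31). It was 10.3% for endothelial markers (6 of 58) and 10.7% for hepatocyte and metabolic genes (8 of 75). These lists were drawn up with earlier results of these data known. They leave 2255 HKO-only genes (88.8%) unnamed. Genes were matched to the lists by symbol, so the 418 HKO-only genes without a symbol could not be counted in any of them. Where 1 value is given for a gene below, it is the highest of its peaks. Some of these values belong to the recurring pairs described above. The pair of 23.5 and -5.28, for example, stood for 21 HKO-only peaks, among them those of *Il2ra* and *Tnfsf9*. The medians of the lists include such peaks.

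**Figure D4:**
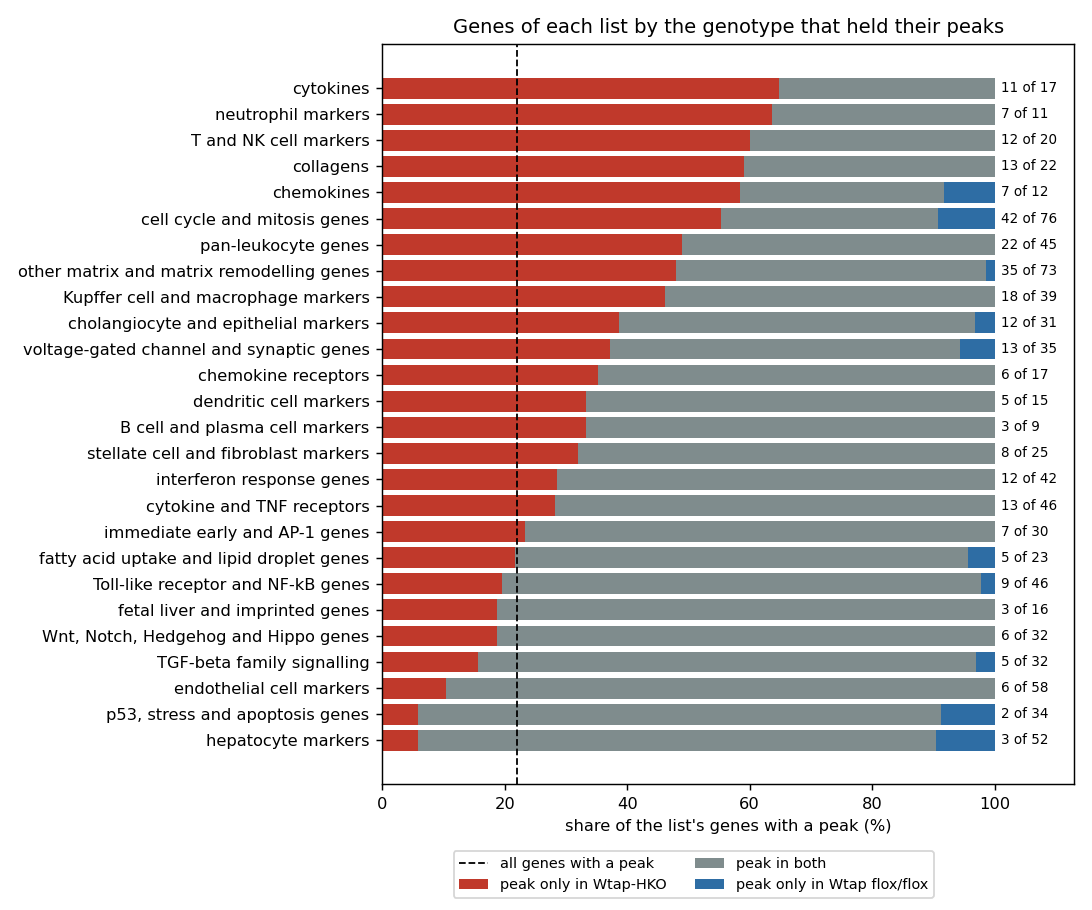
For each of 26 gene lists, the share (%) of its genes with a peak that held peaks only in *Wtap*-HKO (red), in both genotypes (grey) or only in *Wtap* flox/flox (blue), with the HKO-only count of all genes with a peak printed at the right. The dashed line marks the 22.0% of all genes. Cytokines (11 of 17), neutrophil markers (7 of 11) and T and NK cell markers (12 of 20) stand at the top, and p53 and stress genes (2 of 34) and hepatocyte markers (3 of 52) at the bottom.

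Chemokines recruit leukocytes into tissue. Of the 12 chemokine genes with a peak, 7 were HKO-only. *Cx3cl1*, the membrane-bound ligand of monocytes, had 3 peaks with enrichments of 38.7, 27.6 and 4.61. *Xcl1* had 25.3 at 87 nt from its 3´ end and *Ccl24*, an eosinophil chemokine, had 18.1 and 3.75. The monocyte chemokine *Ccl2* (chromosome 11, 82037094 to 82037184) had 1 peak of 5.42 over 91 nt, and the interferon-induced T cell chemokine *Cxcl10* had 1 of 2.55 over 90 nt. Chemokine receptors were HKO-only in 6 of 17 genes, and all their 9 peaks reached 13.9 or more with 0 at a 5´ end. Besides *Ccr1* and *Cx3cr1* they were *Cxcr2* of neutrophils (55.1), *Xcr1* of dendritic cells (29.8 and 27.1), *Ccr9* (19.9) and *Cxcr4* (16.8 and 16.2), the receptor of CXCL12.

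Among cytokines, 11 of 17 genes with a peak were HKO-only. *Tnf*, the main proinflammatory cytokine of macrophages, had 43.4 over 269 nt (log10 FDR -11.0), and *Fasl*, which triggers apoptosis through Fas, had 36.1 and 28.0. Other ligands of the TNF superfamily in the group were *Tnfsf13b* (28.9), *Tnfsf9* (23.5) and *Tnfsf14* (22.6). *Il1b* (10.3, log10 FDR -39.1) and its antagonist *Il1rn* (3.84), *Il33* (6.32), *Il34* (7.05) and *Il18* (3.85) were lower in enrichment. *Mif* had the lowest, 2.49, and was the only cytokine peak at a 5´ end. Cytokine and TNF receptors were HKO-only in 13 of 46 genes, a share near the background. After *Il7r*, the highest were *Il21r* (51.5), *Il18rap* (46.1) and *Cd40* (33.4), a costimulatory receptor. *Il2rg* (24.4), the shared chain of several interleukin receptors, and *Il2ra* (23.5) belonged to them too.

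A set of 22 genes whose liver RNA the study followed holds *Igfbp1*, *Cd36*, *Ccl2* and its cytokine and fibrosis panels. Of these, 8 were HKO-only, 4 held peaks in both lists and 10 held none in either. Over all genes with a peak, 22.0% were HKO-only. The HKO-only genes were *Cd36*, *Ccl2*, *Col1a1*, *Mmp9*, *Tnf*, *Il1b*, *Cxcl10* and *Cx3cl1*. *Cd36*, a fatty acid uptake receptor, had 1 peak of 2.98 over 180 nt in 2 exon blocks (chromosome 5, 17835645 to 17849763). *Mmp9*, a gelatinase, had 1 of 7.45 over 210 nt. The genes with peaks in both lists were *Tgfb1*, *Cd14*, *Csf1* and *Ccr2*. *Igfbp1* was among the genes without a peak. In the paper, none of *Igfbp1*, *Cd36* and *Ccl2* had a significant peak in *Wtap* flox/flox livers or a differing peak.

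Macrophage and Kupffer cell markers were HKO-only in 18 of 39 genes, with a median enrichment of 6.75 over 26 peaks, and 10 of those 26 lay at a 5´ end. Of the defining Kupffer cell markers, *Vsig4* (9.19 and 1.82), *Timd4* (11.3), *Marco* (11.1, 3.19 and 2.69) and *Cd68* (2.33) were HKO-only, *Clec4f* and *Csf1r* held peaks in both genotypes, and *Adgre1* held none. *Itgax*, which encodes CD11c, had 16.4 (log10 FDR -54.7). *Cybb*, the catalytic subunit of the phagocyte NADPH oxidase, had 3 peaks (6.91, 5.26 and 3.09), and *Ctss*, a lysosomal protease, had 8.28. All 6 genes of the *Ms4a* family with a peak were HKO-only. They include *Ms4a6b* (23.5), *Ms4a6c* (12.2) and *Ms4a7* (6.58) of macrophages and *Ms4a1* (18.1), which encodes CD20 of B cells. *Ms4a* was examined as a family after its values had been seen.

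T and NK cell markers were HKO-only in 12 of 20 genes, with a median enrichment of 17.6 over 15 peaks. *Prf1*, the pore-forming protein of cytotoxic cells, had 57.8, the NK receptor gene *Ncr1* 43.4, and the costimulator *Cd28* 41.6 and 27.1. *Cd4* had 30.7, *Cd8a* had 3 peaks of 13.6, 6.78 and 4.97, and *Cd3d* had 11.7. Of the 6 defining markers, 5 were HKO-only and *Cd3e* held no peak. Neutrophil markers were HKO-only in 7 of 11 genes, among them *Clec5a* (23.2), the calprotectin genes *S100a9* (8.28) and *S100a8* (5.11), and *Ngp* (5.85). *Ly6g* and *Mpo* had no peak in either list. B cell and plasma cell markers gave 3 of 9 and dendritic cell markers 5 of 15. The latter include *Irf4* (63.2 and 21.7) and *Batf3* (24.9 and 21.7), transcription factors of dendritic cell subsets, and the MHC class II genes *H2-Ab1* (2.49) and *H2-Eb1* (1.37).

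Genes that most leukocytes express were HKO-only in 22 of 45 cases. The kinase gene *Fgr* had 53.3 and 10.9, and the NADPH oxidase subunit *Ncf4* had 26.2. The kinase *Btk* had 21.7 and the exchange factor *Vav1* 14.7. *Ptprc*, which encodes CD45, had 5.76 over 331 nt (log10 FDR -47.6). Interferon response genes were HKO-only in 12 of 42, near the background, with a low median enrichment of 4.56 over 18 peaks. *Oas3* (15.9) was the highest of them and *Irf7* (2.22) among the lowest. Toll-like receptor and NF-kB genes gave 9 of 46, a share at the background. *Tlr9*, the endosomal sensor of DNA, had 5 peaks from 9.94 to 43.4 and *Nod2* 4 from 9.49 to 36.1, while *Myd88* (4), *Ikbkb* (2.93 and 2.75) and *Nfkb2* (3.05) were low.

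**Figure D5:**
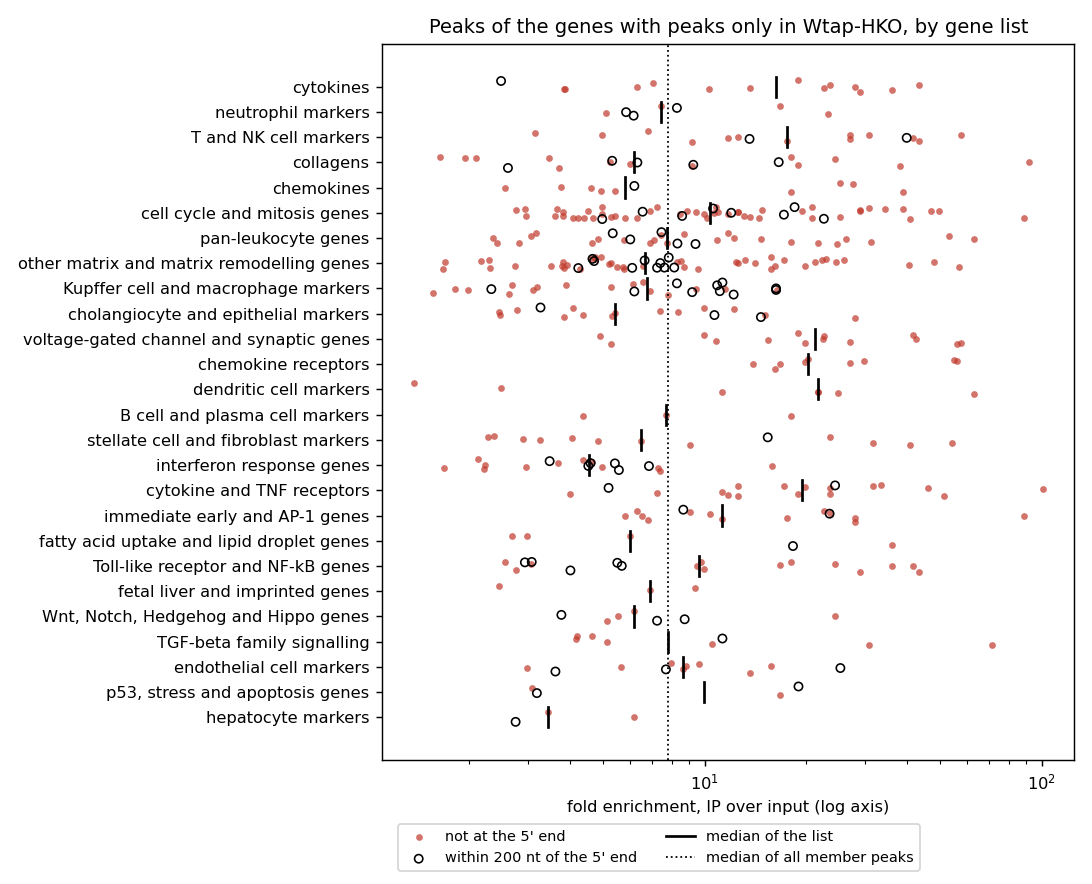
Fold enrichment (IP over input, log axis) of each peak of the HKO-only genes in 26 gene lists, with red dots for peaks away from the 5´ end, open circles for peaks within 200 nt of it, a short bar for the median of each list and a dotted line for the median of all HKO-only peaks (7.79). Chemokine receptors (20.3), channel genes (21.2) and T and NK cell markers (17.6) have high medians with few or no open circles, and interferon response genes (4.56) and hepatocyte markers (3.43) have low ones.

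Matrix genes were the second large class. Collagens were HKO-only in 13 of 22 genes with a peak. *Col1a1* and *Col3a1*, the fibrillar collagens of scar tissue, had 9.15 over 570 nt (log10 FDR -201) and 3.46 over 330 nt. The basement membrane collagens *Col4a1* (2.61, 2.10 and 1.95) and *Col4a2* (5.32 and 1.64) had low values. Another of them, *Col4a4*, had 24.4, with a pair of values that recurred in 20 HKO-only peaks. *Col8a1* had 92.1 and *Col8a2* 37.9. Other matrix and remodelling genes were HKO-only in 35 of 73. The matricellular proteins *Tnc* (56.9 over 1107 nt) and *Thbs2* (40.4) led them beside the fibrillin *Fbn2* (47.9) and the latent TGF-beta binding protein *Ltbp2* (25.9). *Plod2* (24.5), *Loxl4* (14.1), *Lox* (15.8 and 13.2) and *Loxl2* (9.59), which modify or cross-link collagen, were HKO-only as well. The proteases *Mmp12* (15.8), *Mmp7* (8.13) and *Mmp2* (6.64) and the inhibitor *Timp3* (7.83) were in the group, with the proteoglycans *Fmod* (22.9), *Vcan* (8.67) and *Dcn* (7.60). *Sparc*, a collagen-binding protein, had 7.39 and 1.70.

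Stellate cell and fibroblast markers gave 8 of 25 HKO-only genes. They include *Pdpn* (54.2), *Gli3* (40.7 and 31.6), *Wt1* (23.5) of mesothelium and mesenchyme, *Cygb* (6.47 and 4.03) of stellate cells and *Tagln* (3.24) of contractile cells. The defining stellate markers *Lrat*, *Des* and *Pdgfrb* held peaks in both genotypes, and *Acta2* and *Reln* had none. Endothelial markers gave 6 of 58, below the background. *Emcn* (25.3), *Vwf* (15.7) and *Ramp2* (13.6) were among them, while *Pecam1*, *Cdh5*, *Kdr* and *Lyve1* held peaks in both. TGF-beta family genes gave 5 of 32, with *Acvrl1* (71.4), *Bmp6* (30.7) and *Tgfb3* (11.3) the highest. Among the 12 cholangiocyte and epithelial markers of the group, *Pdzk1ip1* (28.0), *Cldn4* (15.1), *Krt23* (14.7), *Epcam* (12.2) and *Aqp1* (10.7) had the highest enrichments. Of the 4 defining cholangiocyte markers only *Epcam* was HKO-only, while *Sox9* held peaks in both genotypes and *Krt7* and *Krt19* held none.

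Cell cycle genes were HKO-only in 42 of 76 genes with a peak, and 7 of the remaining 34 had a peak only in *Wtap* flox/flox. Their 56 peaks had a median enrichment of 10.4, against 7.42 for the 53 *Wtap*-HKO peaks of the cell cycle genes in both lists. The HKO-only median was also higher for immune (9.41 against 9.13) and stress and signalling genes (11.3 against 6.57). The same order held for hepatocyte and metabolic (4.71 against 3.99) and neuronal genes (21.2 against 17.85). It was reversed for matrix (6.52 against 8.73), endothelial (8.61 against 13.2), cholangiocyte (5.42 against 6.17) and developmental genes (6.545 against 9.03). *Cit*, a kinase of cytokinesis, led the cell cycle genes with 88.5. The replication initiators *Cdc7* (49.7) and *Cdc6* (34.3), the spindle pole protein *Aspm* (47.0 and 40.7), the kinesins *Kif4* (30.7) and *Kif14* (25.3), and the kinetochore motor *Cenpe* (28.9) followed. *Plk1* (6.55), *Rrm2* (4.07), *Top2a* (3.65) and *Birc5* (2.76), standard markers of dividing cells, were in the group at low enrichment, as were the helicase subunits *Mcm2* (3.8), *Mcm3* (3.59) and *Mcm5* (4.97). *Cdkn1a*, which encodes the cell cycle inhibitor p21, had 1 peak of 18.5 over 267 nt with a log10 FDR of -138. Only 8 of the 56 peaks were at a 5´ end (14.3%, against 25.9% of all HKO-only peaks). Counted among these genes is *Gem* (12, 11 and 2.96), a small GTP-binding protein and not geminin, the replication inhibitor.

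Immediate early genes were HKO-only in 7 of 30, near the background. *Egr2* had 88.5 and 17.6, *Egr3* 28.0 as its highest, *Dusp2* 23.5, and *Fos* 6.32 and 5.79. p53, stress and apoptosis genes gave 2 of 34, *Bcl2a1d* (19 and 16.7) and *Bax* (3.18 and 3.08). Developmental genes gave 9 of 48 over the Wnt, Notch, Hedgehog and Hippo list and the fetal and imprinted list, among them *Wnt11* (24.4), *Peg10* (9.34) and *Cdkn1c* (6.90). Voltage-gated channel and synaptic genes, which mark neurons and excitable cells, gave 13 of 35 with a median enrichment of 21.2 and 0 of 14 peaks at a 5´ end. *Kcnj2* (57.8), *Cacna2d1* (56.0), *Cacnb2* (42.5) and *Kcne4* (41.6) led them.

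Hepatocytes are the cells that lack *Wtap*, and genes listed as their markers were HKO-only in 3 of 52. These were *Ttr*, the thyroxine carrier (6.18, log10 FDR -237), *F2* and *Fbp2* (3.43, log10 FDR -3.13). *Fbp2* is counted as listed, but it encodes the muscle form of its enzyme and is no specific marker of hepatocytes. *Alb*, *Apoa1* and *Hnf4a* held peaks in both genotypes and *Cps1* in neither. Fatty acid uptake and lipid droplet genes gave 5 of 23, at the background. Besides *Cd36* they were *Slc27a6* (36.1), *Fabp4* of adipocytes and macrophages (18.3), *Lpl* (5.99) and *Plin3* (2.68). Genes with *Nduf*, *Cox*, *Uqcr* or *Atp5* symbols, examined after their values had been seen, were HKO-only in 16 of 47. These symbols belong to the mitochondrial respiratory chain and ATP synthase, and the set may hold assembly factors beside subunits. Of the 16 HKO-only peaks of these genes, 10 lay at a 5´ end. Most were low in enrichment, such as *Ndufb6* (3.15), *Uqcrc1* (2.75) and *Ndufa6* (1.57), while *Atp5a1* reached 25.1.

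Families named by a shared symbol spread widely around the 22.0%. Protocadherins, adhesion molecules known from neurons, were HKO-only in 17 of 21 genes, with a median enrichment of 31.6 over 37 peaks and 1 peak at a 5´ end. Apart from *Pcdh7* and *Pcdh18* (47.9) they come from the clustered loci, whose genes share sequence, as with *Pcdhga5* (47.9), *Pcdhga3* (38.8) and *Pcdhgb6* (37.9). Kinesins gave 14 of 24, with *Kif26a* (62.3) the highest. Collagen symbols gave 14 of 24, interleukin symbols 16 of 34 and CD symbols 27 of 61. Immunoglobulin genes, added after their values had been seen, gave 20 of 25, and 19 of their 23 peaks lay at a 5´ end, with *Ighv1-42* (52.4) the highest. Their V segments are short and similar in sequence. A peak in so short a gene lies near the 5´ end by length alone, so this 5´ share is no finding.

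Below the background stood zinc finger proteins of the *Zfp* symbols, with 35 of 307, solute carriers, with 25 of 207, and *Rab* GTPases, with 7 of 48. The *Zfp* peaks still had a median enrichment of 14.9, with *Zfp37* (50.6) the highest, and the *Rab* peaks one of 2.39. *Tmem* (30 of 137), *Fam* (31 of 127) and *Ccdc* symbols (13 of 62) lay near the background, with *Tmem150b* (57.8), *Fam217b* (57.8) and *Ccdc69* (70.5) as their highest peaks. Tumour necrosis factor and receptor symbols gave 9 of 24, potassium channels 6 of 21, integrins 5 of 19, semaphorins 3 of 14, and ADAM and ADAMTS symbols 8 of 22. Predicted genes gave 37 of 146 (*Gm* models) and 29 of 181 (*Rik* models). Other families added after their values had been seen were *S100* (4 of 7), *H2* (8 of 18), *Clec* (7 of 17), *Gpr* (8 of 24), *Tspan* (3 of 11), *Serpin* (6 of 24), *Cyp* (10 of 43) and *Gimap* symbols (1 of 8). *Gbp* and *Ifi* symbols gave 5 of 23, *Rpl* and *Rps* symbols 8 of 29, *Naip* 1 of 4, and *Slamf* and *Siglec* symbols 1 of 3 each.

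Protein domain names were listed by the authors for most genes. Among 10051 genes with a domain entry 20.3% were HKO-only. Of the 307 domain names with at least 20 genes, the N-terminal cadherin domain had the highest HKO-only share (17 of 21, the protocadherins above), and other names for cadherins and kinesins came next, such as the kinesin motor domain superfamily (15 of 25) and the cadherin conserved site (21 of 36). Thrombospondin type-1 repeats (17 of 33), conserved sites of C-type lectins (11 of 23) and the laminin G domain (9 of 20) also had high shares. Fibronectin type III domains gave 40 of 96, EF-hand pairs 46 of 120 and the immunoglobulin-like fold 136 of 382. Several domains of transcription and chromatin regulators were at the other end. The ligand-binding domain of nuclear receptors gave 1 of 32, PHD fingers 5 of 73 and bromodomains 2 of 36, and the SOCS box of ubiquitin ligase adaptors 0 of 21. The genes of these names largely held peaks in both genotypes. Domain names overlap in their genes and were ranked after the counts had been seen.

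Genes that the study lists as higher in both RNA and chromatin accessibility in *Wtap*-HKO livers, from other libraries, made up 425 of the 2538 HKO-only genes (16.7%; Wilson interval 15.3 to 18.2%), which is 27.7% of that list. Among genes of both lists 564 of 8096 (6.97%) were on it, or 36.8% of it, and among genes with peaks only in *Wtap* flox/flox 38 of 924 (4.11%). The list of genes lower in both ran the other way, with 48 HKO-only genes (1.89%), 506 genes of both lists (6.25%) and 105 *Wtap* flox/flox-only genes (11.4%). The other 2065 HKO-only genes were on neither list. No RNA level was used here, and the part of RNA level in the presence of a peak was not tested. *Nupr1*, *Ly6d*, *Lyz2*, *Cdkn1a*, *Col1a1*, *Col3a1*, *Ccl2*, *Cd36*, *Il1b*, *Marco* and *Ptprc* were on the list of higher genes, and *Ttr* was on that of lower genes.

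The 639 peaks of the 425 higher genes had a median enrichment of 8.58 (7.53 to 9.40), a median length of 209 nt and 14.4% at the 5´ end (90 of 627 placed; 11.8 to 17.3%). The 52 peaks of the 48 lower genes had 4.45 (3.90 to 5.72), 180 nt and 57.4% (27 of 47; 43.3 to 70.5%). Peaks of HKO-only genes on neither list had 7.68 (7.23 to 8.13), 180 nt and 28.6% (26.7 to 30.6%). By class, the list of higher genes held 9 of 12 HKO-only cholangiocyte and epithelial markers, 26 of 60 matrix genes, 47 of 126 immune genes and 12 of 42 cell cycle genes, counted by gene identifier in the first list that holds it. Of the HKO-only genes in no list, 320 of 2255 (14.2%) were on it.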

How the data were processed

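Liver RNA of both genotypes was profiled by m6ARIP-seq, with 2 IP and 2 input libraries per genotype (8 libraries, 150 bp paired-end reads). Groups were taken from the genotype and antibody labels. The authors trimmed reads (fastp 0.19.11), aligned them to GRCm38 with the Ensembl 92 annotation (BWA 0.7.12) and called peaks with exomePeak 2.16.0. HOMER 4.9.1 is also named. How replicates were combined is not given in the sources used here. The authors deposited 1 peak list per genotype and 1 list of differing regions. The fold enrichment deposited for each peak is a ratio of IP over input, and the FDR deposited is a log10 score of the peak caller. Positions are deposited 0-based and are printed 1-based. Of the differing regions only the positions were used. Their columns of fold changes and p-values between genotypes were not used. No read counts are used here, so depth and detection limits are unknown, and a gene without a listed peak may carry m6A.

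Genes were assigned by gene identifier, gene lists by symbol or RefSeq synonym. Overlap meant at least 1 shared exonic base on the same strand. Peaks were placed on RefSeq gene spans (GRCm38.p6) through symbols, which matched 83.6% of HKO-only peaks and 92.5% of the peaks of the genes in both lists, and start sequences came from the RefSeq promoter table (250 bases before and 50 from each start). Wilson intervals and intervals of medians from order statistics are at 95%. No test was run, because no list has values per replicate. The members, gene lists and families were chosen with earlier results of these data known. Named were panel genes, up to 4 genes per gene list of highest enrichment at log10 FDR under -5 with the defining markers and further list members, the 10 peaks of lowest FDR and of highest enrichment, the 5 genes of most peaks, the 5 longest peaks, the peaks next to the threshold and, for some symbol families, the top peak. List members beyond the top 4 were chosen after their values were seen. Alternatives were stricter FDR or enrichment, equal list lengths, other overlap rules, distances of 100 and 500 nt, 1 peak a gene and spans over 5000 nt. Scripts ran in Python 3.11.15 (numpy 2.4.6, pandas 2.3.3, scipy 1.17.1, matplotlib 3.10.9) and were tested on simulated lists, where they recovered every planted gene, overlap and position. Some items are not reported here.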

Additional observations from a re-analysis of the deposited data

How the results depend on the processing

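The count of HKO-only genes stayed between 2161 and 2780 under 6 of the 7 alternatives. With the *Wtap*-HKO list cut to as many peaks as the control list, by FDR, it was 1657. The median enrichment of 7.79 became 7.23 with 1 peak a gene (6.85 in genes of both lists), 6.47 in genes with a single peak, 9.94 without 5´-end peaks and 5.87 without recurring values (5.58 in genes of both lists). The last 2 settings were chosen after seeing the data. The median length of 180 nt became 181 nt at log10 FDR under -5, without 5´-end peaks and without recurring values. Without peaks that share a base with a control peak, it was 180 nt for HKO-only genes and also for genes of both lists. The 5´-end share of 25.9% was 21.2% within 100 nt, 30.4% within 500 nt, 30.5% with 1 peak a gene and 23.6% for spans over 5000 nt. Settings added after seeing the data gave 35.9% (genes with a single peak) and 32.9% (nearest RefSeq start). It exceeded the share of genes in both lists under each of these. The 3´-end share of 7.39% was 4.75%, 13.7% and 6.24% within 100 nt, within 500 nt and for long spans. With 1 peak a gene it was 7.71% (10.7% in genes of both lists). In genes with a single peak, a setting added after seeing the data, it was 7.59% (12.2% in genes of both lists). At equal list lengths the HKO-only share was 33.2% for immune, 9.30% for developmental and 21.4% for neuronal genes, beside a background of 15.5%. Of HKO-only peaks, 9 shared a base with a control peak, 37 on either strand and 5 over 50% of their bases.

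No paired analysis was possible because each genotype has 1 combined list, and leaving out a replicate could not be done for the same reason. Unknown depth limits what an absent peak can mean.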
